A study of Danio rerio with 3 samples.

Results

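Integrins are cell-surface receptors made of 1 alpha and 1 beta chain, which tie cells to matrix proteins and to ligands on other cells. Each alpha chain accepts only certain beta chains, so the set of chains that a cell makes limits the receptors it can assemble. In blood cells of vertebrates the beta2 chain is a hallmark of leukocytes, and alpha4 paired with beta1 or beta7 is known for the homing of progenitors. The integrin genes were described here in single cells of the zebrafish embryonic trunk, taken 36 hours post fertilization, an age when blood cells emerge from the endothelium of the dorsal aorta. They were the rows of the deposited count table whose symbol begins with itga or itgb, which gave 33 of 19831 genes. Of these, 32 encode chains (21 alpha and 11 beta) and 1, itgb1bp1, encodes an adaptor that binds the beta1 tail.

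The embryos carried spi2:Gal4;UAS:GFP, which marks cells that express spi2, a gene for an ETS-family transcription factor, and kdrl:mCherry, which marks cells of endothelial origin. All cells described here came from the libraries DP 1 and DP 2, whose cells the deposited cell table lists as kdrl+spi2+. Of 56 DP 1 wells with counts, 1 is not in that cell table. Of 93 DP 2 cells that the cell table lists, 37 had a column in the count table used here. The others had none there and could not be analysed. Sorted cells carrying GFP without mCherry were not analysed here. No treatment or mutation was applied to these fish as far as the labels say. The transcripts were read by STRT-seq, a plate-based method with 1 cell per well, and nothing in the labels says which embryos or clutches the libraries came from.

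Only cells with at least 500 detected genes were used, namely 53 from DP 1 and 35 from DP 2. Totals per cell ran between 15439 and 903548 counts in DP 1 (median 134394) and between 4818 and 379006 in DP 2 (median 58292), so a transcript was easier to find in DP 1. For shares compared between libraries or states, each cell was therefore also thinned at random to 20000 counts, which kept 50 and 29 cells. Each count scaled to a common library total (CPM, the usual scaling by the cell's or sum's total) was used as the level of 1 gene across cells. Levels were not compared between genes, because how the counts were made is not given in the sources used here. Intervals are exact 95% Clopper-Pearson intervals for shares and exact 95% Poisson intervals for summed counts, and they cover counting error only.

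Over all genes, 15287 of 19831 had a count in a kept cell. Of the 32 chain genes, 23 had one (15 alpha and 8 beta). The other 9 were at 0 in 12346932 counts, namely itga2b, itga3b, itga8, itga11a, itga11b, itgam, itgb1b.1, itgb6 and itgb8. A count of 0 in 88 cells, read as at most 3 cells, allows a share of up to 3.41% (the exact interval reaches 4.11%). Among those at 0, itga2b encodes the chain known as CD41, a marker of thrombocytes and early blood progenitors in zebrafish, and itgam encodes a classical beta2 partner of myeloid cells. Counts were concentrated in 3 genes. itgb2, itgae.2 and itga4, the 3 most widely found chains, together held 2010 of the 2295 integrin chain counts (87.6%). This is a share of counts and not a comparison of levels between genes.

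**Figure D1:**
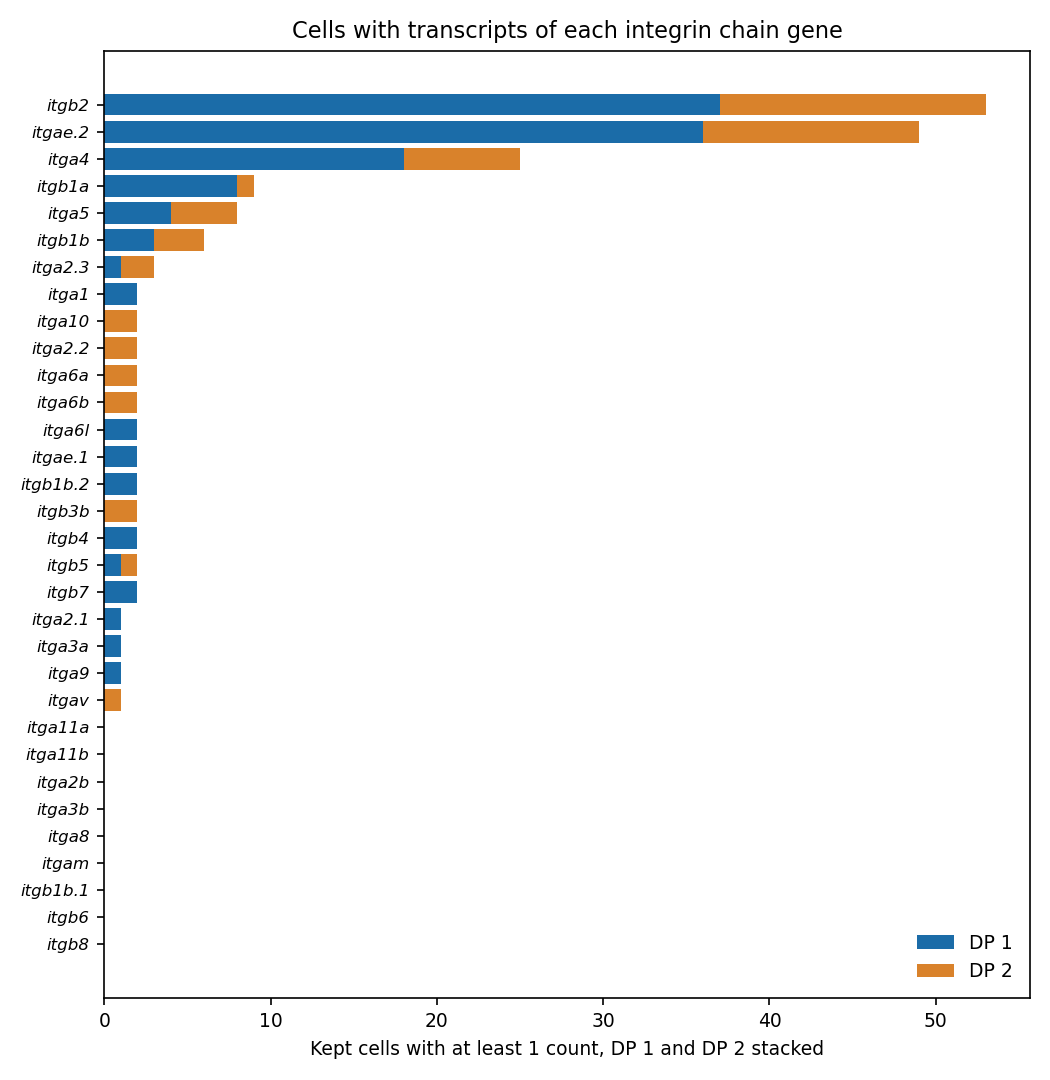
Number of kept cells with at least 1 count of each integrin chain gene, with DP 1 (of 53 cells) in blue and DP 2 (of 35 cells) in orange, stacked. itgb2 was found in 53 cells, itgae.2 in 49 and itga4 in 25, no other chain was found in more than 9, and 9 chains were at 0.

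itgb2, which encodes the beta2 chain of leukocytes, had a count in 37 of 53 DP 1 cells (69.8%, with an interval of 55.7 to 81.7%), and in DP 2 in 16 of 35 (45.7%). After thinning the shares were 60% (30 of 50 cells) and 27.6% (8 of 29 cells), and the summed level was 77.0 CPM in DP 1 and 36.0 CPM in DP 2. itgae.2 is named for its likeness to the mammalian alphaE chain, which pairs with beta7 and binds E-cadherin. In DP 1 it had a count in 36 of 53 cells (67.9%), in DP 2 in 13 of 35 (37.1%), or in 50% (25 of 50) and 31.0% (9 of 29) after thinning, at 90.9 CPM in DP 1 and 41.1 CPM in DP 2. Both genes were thus more often found and higher in the DP 1 library, also at equal depth. The intervals of the thinned shares overlapped, widely for itgae.2 (35.5 to 64.5% in DP 1 and 15.3 to 50.8% in DP 2). For itgb2 they overlapped slightly (45.2 to 73.6% and 12.7 to 47.2%). With 1 library on each side no test of this difference can be made. itgae.1, a neighbour of itgae.2 on the same chromosome with 1 annotated protein-coding gene between them, was found in only 2 cells. How reads of similar copies were assigned is not given in the sources used here, so the split between itgae.1 and itgae.2 is uncertain.

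itga4 encodes the alpha4 chain, which in zebrafish is needed for progenitors to lodge in the caudal haematopoietic tissue. In DP 1 it had a count in 18 of 53 cells (34.0%), in DP 2 in 7 of 35 (20%), or in 11 of 50 and 3 of 29 thinned cells. Its summed level was 18.0 CPM in DP 1 and 17.3 CPM in DP 2, but averaged over cells it was 19.8 CPM in DP 1, against 8.35 CPM for the cells of DP 2. In DP 2 a pair of cells held 21 and 20 of the 54 counts.

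Chains of the widespread beta1 class were found in few cells. itgb1a was found in 8 DP 1 cells and 1 DP 2 cell with 60 counts in all, and itgb1b in 3 cells of each library with 25 counts. itgb1b lies next to itgb1b.2 and itgb1b.1 in the RefSeq gene order, and these copies could share reads in ways that cannot be traced here; itgb1b.2 was found in 2 cells and itgb1b.1 in none. itga5, which encodes the alpha5 chain of the fibronectin receptor, was found in 4 cells of each library with 68 counts. The remaining 17 chains with a count were each found in 1 to 3 cells. In DP 1 alone these were itga1, itga2.1, itga3a, itga6l, itga9, itgae.1, itgb1b.2, itgb4 and itgb7, and in DP 2 alone itga2.2, itga6a, itga6b, itga10, itgav and itgb3b. Those in both libraries were itga2.3, with 30 counts in 3 cells, and itgb5, with 7 counts in 2 cells. In all, 8 chains were shared by the libraries, 9 were seen in DP 1 alone and 6 in DP 2 alone. The same split over all genes is not given here. DP 1 held 9232289 counts and DP 2 held 3114643, so the split is not read as a property of integrin genes.

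A kept cell held transcripts of a median of 2 different chains, with at most 6. Transcripts of at least 1 alpha and 1 beta chain were found in 41 of 88 cells. Another 18 cells held an alpha chain without any beta chain, 18 held a beta chain without any alpha chain, and 11 held none.

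Cells were then split by genes that mark their state. cdh5 encodes VE-cadherin of endothelial junctions, npsn encodes nephrosin, a protease of zebrafish neutrophils, and myb encodes a transcription factor of blood progenitors. Cells with cdh5 at 50 CPM or more and npsn under 500 CPM were called cdh5+ (4 in DP 1 and 4 in DP 2), and those with npsn at 500 CPM or more and cdh5 under 50 CPM were called npsn+ (5 and 2). The rest were called myb+ at 50 CPM of myb or more (38 and 21) and myb- below it (6 and 8). The myb limit was not applied to cdh5+ and npsn+ cells, and most of them passed it too. Of the 88 kept cells, 72 had myb at 50 CPM or more, and 59 of these were in the myb+ state. Comparisons of cdh5+ or npsn+ cells with myb+ cells are therefore not comparisons of cells without and with myb. The cells nearest to each limit had 54.8 and 26.4 CPM of cdh5, 1521 and 274 CPM of npsn, and 53.0 and 48.4 CPM of myb. A higher limit was asked of npsn because it is among the most abundant neutrophil transcripts. Below that limit, npsn was also found in 42 of the 48 other DP 1 cells and in 19 of the 33 other DP 2 cells. The medians of these other cells were 18.9 and 8.28 CPM.

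Marker lists were then summed by state. The endothelial list holds cdh5 and the neutrophil list holds npsn, which set the states, so their sums are partly fixed by the split. Summed over 18 endothelial markers, cdh5+ cells had 1513 CPM in DP 1 and 1834 CPM in DP 2 (15 and 14 markers with a count), against 70.3 and 466 CPM in myb+ cells. Summed over 11 neutrophil markers, npsn+ cells had 40380 CPM in DP 1 and 52497 CPM in DP 2, against 1455 and 1516 CPM in myb+ cells and 774 and 625 CPM in cdh5+ cells. Macrophage markers were at 0 in cdh5+ cells, all 8 of them, and at no more than 10.1 CPM in any other state. The 10 stem and progenitor markers, which include myb, were not highest in myb+ cells. They summed to 859 CPM in myb+ cells of DP 1 and 953 CPM in those of DP 2. The sums were 2334 and 1058 CPM in cdh5+ cells, 653 and 801 CPM in myb- cells, and 313 and 202 CPM in npsn+ cells. The split was not complete, since 4 cells outside the npsn+ state had more than 5000 CPM of neutrophil markers (2 myb+ cells of DP 1, 1 myb+ cell and 1 myb- cell of DP 2). Endothelial markers also overlapped between single cells, with sums of at most 2317 CPM in cdh5+ cells of DP 1 and 2487 CPM in those of DP 2, against at most 2611 and 3177 CPM in myb+ cells. Outside the cdh5+ state, 6 cells exceeded 1000 CPM, a limit chosen after the data were seen. The 2 of these that were myb+ cells of DP 2 held 1 count of itgae.2, 16 of itgb2 and 21 of itga4, and the other 4 held no itgae.2 or itga4. Skeletal muscle markers differed by library rather than state, with 274 CPM in the myb+ cells of DP 2 and 16.9 CPM in those of DP 1. In these sums, fewer cells that express a gene and less RNA of it per cell cannot be told apart, and 1 deep cell gave 94.4% of the npsn+ counts of DP 2 and 44.3% and 57.1% of the cdh5+ counts of DP 1 and DP 2.

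**Figure D2:**
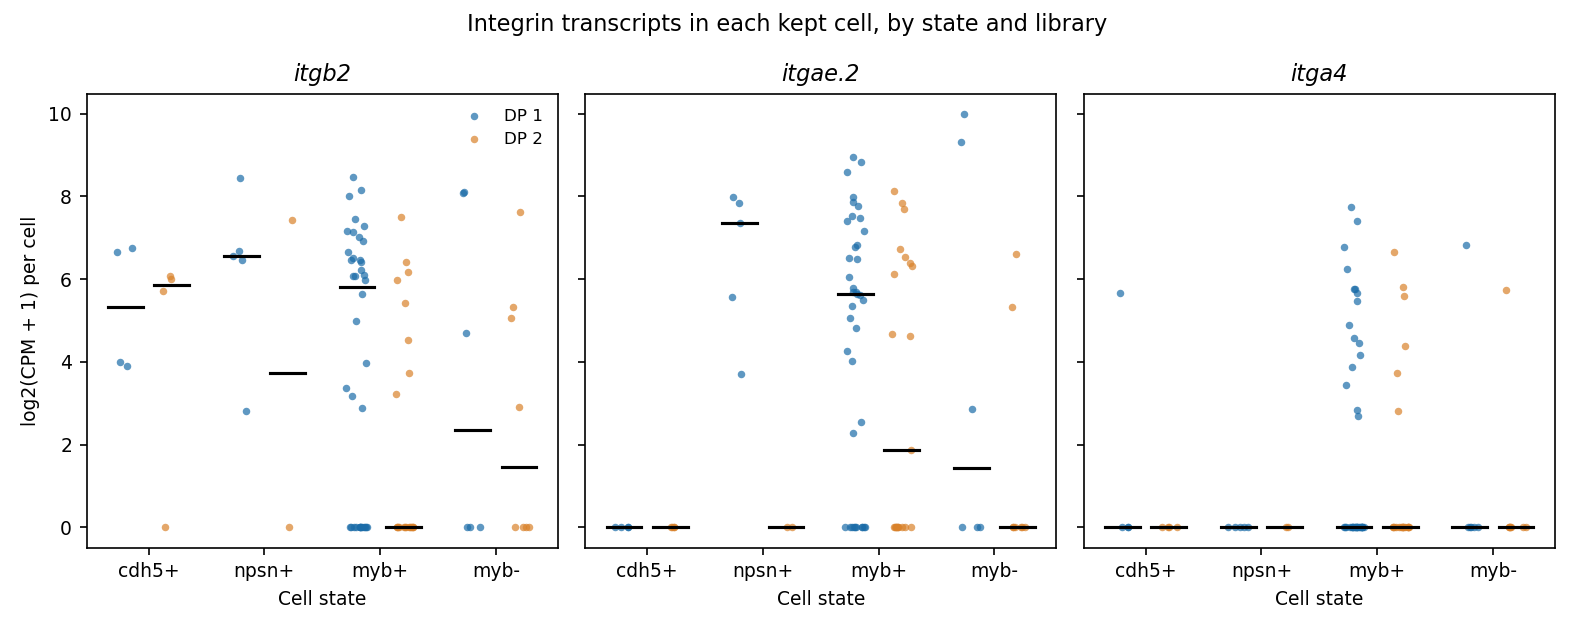
Level of itgb2, itgae.2 and itga4 in each kept cell, as log2(CPM + 1), by cell state along the x axis, with DP 1 in blue and DP 2 in orange; each point is a cell and black bars are medians. No cdh5+ cell held itgae.2 and no npsn+ cell held itga4, while itgb2 was found in all 4 states of both libraries.

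Counts were summed per state and library, and the sums were compared with edgeR's quasi-likelihood test over 5854 genes, with Benjamini-Hochberg adjustment and library as a block. Only itgb2, itgae.2, itga4 and itgb1bp1 had enough counts to enter the test, and the other 29 rows did not. A gene could enter it through the states where it is high, so the test of these 4 is not a sample of all integrin genes. In simulated sums, 200 genes had a known 8-fold rise in cdh5+ cells. Of these, 21 were recovered in the comparison of cdh5+ with myb+ cells and 0 unchanged genes were called, so rises of this size were mostly missed. Falls and the other 2 comparisons were not simulated, so how often differences there are missed was not tested.

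itgae.2 was not found in cdh5+ cells. It was at 0 in all 8 cdh5+ cells, in 658974 counts of DP 1 and 318420 counts of DP 2. In myb+ cells it was found in 28 of 38 cells of DP 1, at 90.7 CPM summed (median 48.7 CPM per cell, highest 493), and in 11 of 21 cells of DP 2, at 52.4 CPM (median 2.64, highest 281). With 3 counts as the limit of detection per sum, itgae.2 was at least 19.9-fold lower in the cdh5+ sum than in the myb+ sum of DP 1. In DP 2 it was at least 5.56-fold lower. These bounds hold for the pooled counts and do not cover the spread between the few cells behind them. At equal depth itgae.2 was found in 0 of 7 cdh5+ cells and in 27 of 54 myb+ cells. The per-cell values overlap, however, because 10 myb+ cells of each library also had none, and 0 of 8 cells, read as at most 3 cells, allows a share of up to 37.5% (the exact interval reaches 36.9%).

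The edgeR test did not call this difference. The fitted log2 fold change of itgae.2 was -10.80 ± 3.25 (SE), with an edgeR adjusted p of 0.220; a fitted value against a group at 0 depends on the prior count and is not a bound. In this comparison 14 of 5854 genes were called (0.239%), and 0 of the 4 tested integrin rows. DESeq2 did call itgae.2, at -7.46 with an adjusted p of 0.0352, and so did edgeR when cells with npsn above 50 CPM were counted as npsn+, at an adjusted p of 0.0280. Over 11 alternatives with a test its adjusted p lay between 0.0280 and 0.850, and its direction was the same in each.

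itgb2 was found in cdh5+ cells as well. In DP 1 the 4 cdh5+ cells had 106, 99.5, 14.9 and 14.0 CPM, or 75.9 CPM summed, against 67.3 CPM in myb+ cells, of which 25 of 38 had a count. In DP 2 the 4 cdh5+ cells had 66.3, 63.4, 51.5 and 0 CPM, or 25.1 CPM summed, against 28.9 CPM in myb+ cells, of which 8 of 21 had a count. The 4 DP 1 cells form a high and a low pair, and the only cdh5+ cell without itgb2 was the deepest of DP 2, with 181916 counts. The fitted difference was -0.19 ± 1.35 on the log2 scale, adjusted p = 1 (edgeR), so neither a rise nor a fall could be told from the spread, and its sign depended on the scaling. The neutrophil markers summed to 774 and 625 CPM in these cells, as given above, and their part in the itgb2 counts was not tested.

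itga4 was found in 1 of 8 cdh5+ cells, a DP 1 cell with 8 counts (49.7 CPM), against 16 of 38 myb+ cells in DP 1 and 6 of 21 in DP 2. At equal depth it was found in 1 of 7 cdh5+ and 11 of 54 myb+ cells. The fitted log2 fold change was -2.49 ± 2.91, adjusted p = 1 (edgeR). With cdh5 and myb at 200 CPM it was -8.47 (edgeR adjusted p = 0.453), but the cdh5+ state then held only 1 cell of each library. itgb1bp1 differed between the libraries. Its 4 cdh5+ cells of DP 1 had 186, 51.3, 31.1 and 0 CPM and those of DP 2 had none, while myb+ cells had 17.2 CPM summed in DP 1 and 4.52 CPM in DP 2 (fitted -0.88 ± 3.06, adjusted p = 1).

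Of the chains too scarce for a test, itga5 was found in 3 of 8 cdh5+ cells and in 4 of 59 myb+ cells. In DP 2 a single cdh5+ cell held 16 counts (88.0 CPM), and in DP 1 a pair of cdh5+ cells held 4 and 1 counts; 1 myb+ cell of DP 1 held 40 of the 42 counts of that sum. itgb1a had 21 counts in 1 cdh5+ cell of DP 1 and 38 counts in 7 myb+ cells of DP 1, and itgb1b had 2 counts in 1 cdh5+ cell and 20 counts in 4 myb+ cells. These values rest on so few cells that they are given as a description only.

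In npsn+ cells itga4 was not found. It was at 0 in the 5 cells of DP 1 (1388399 counts) and the 2 cells of DP 2 (153267 counts), against 20.9 CPM in myb+ cells of DP 1 and 20.8 CPM in those of DP 2. This made itga4 at least 9.68-fold lower in the npsn+ sum than in the myb+ sum of DP 1, but the depth of DP 2 allowed only a bound of 1.06-fold. Both bounds hold for the pooled counts and do not cover the spread between the few npsn+ cells. The fitted log2 fold change was -8.64 ± 4.58, with an edgeR adjusted p of 0.793. The absence depends on the limit for npsn. With npsn at 50 CPM, 9 cells of DP 1 and 5 of DP 2 were added to the npsn+ state, of which 2 and 1 held itga4, and the fitted difference was -0.51 (edgeR adjusted p = 1). In this comparison 80 of 5854 genes were called (1.37%), and 0 of the 4 tested integrin rows. With 22 of 38 DP 1 and 15 of 21 DP 2 myb+ cells also at 0, the groups overlap.

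itgb2 was found in 6 of 7 npsn+ cells. The 5 cells of DP 1 had 349, 102, 94.2, 87.6 and 6.01 CPM, or 98.7 CPM summed, against 67.3 CPM in myb+ cells, and the 2 cells of DP 2 had 173 and 0 CPM, or 163 CPM summed, against 28.9 CPM. The DP 2 cell without itgb2 had only 8549 counts. The sums differed by 0.56 and 2.51 on the log2 scale, the DP 2 value resting on 1 cell. The fitted difference of 1.76 ± 1.39 was not called (edgeR, adjusted p = 0.911), and it was 0.0621 without the deepest cell of each sum and 0.97 with npsn at 50 CPM. itgae.2 was found in npsn+ cells of DP 1 alone. Its 0 in DP 2 rests mainly on 1 cell and bounds it only to at least 2.68-fold lower than in myb+ cells of DP 2. All 5 npsn+ cells of DP 1 held it, at 255, 228, 164, 46.3 and 12.0 CPM (111 CPM summed, against 90.7 CPM in myb+ cells), and neither npsn+ cell of DP 2 did, against 52.4 CPM in myb+ cells (fitted -1.30 ± 1.86, edgeR adjusted p = 0.976; -0.19 without the library block and -2.65 by mean CPM per cell). itgb1bp1 had 8.64 CPM in npsn+ cells of DP 1 and none in those of DP 2, against 17.2 and 4.52 CPM in myb+ cells (fitted -2.95 ± 3.60, edgeR adjusted p = 0.973). The depth of DP 2 set no bound for it. itga5, itgb1a and itgb1b had no count in any npsn+ cell.

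No integrin row was called between myb+ and myb- cells, a comparison in which the few myb- cells limit precision. itgb2 had 67.3 CPM in myb+ cells of DP 1 and 28.9 CPM in those of DP 2, against 150 and 35.0 CPM in myb- cells. These myb- sums rest on few cells. Single cells gave 53 and 17 of the 74 counts in DP 1, and 1 cell gave 11 of the 15 in DP 2. itgae.2 had 90.7 and 52.4 CPM in myb+ cells, against 158 and 28.0 CPM in myb- cells, and 1 myb- cell of DP 1 gave 64 of the 78 counts of its sum (1017 CPM). itga4 was found in 22 of 59 myb+ cells and in 2 of 14 myb- cells, or at equal depth in 11 of 54 and 2 of 12. Its summed level of 20.9 and 20.8 CPM in myb+ cells stood against 36.4 and 18.7 CPM in myb- cells. The fitted log2 differences of the 4 tested rows lay between -0.71 and 2.18, all with an adjusted p of 1 (edgeR). In this comparison 0 of 5854 genes were called (0%); 110 were higher and 23 lower at an unadjusted p under 0.05, and DESeq2 also called 0.

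**Figure D3:**
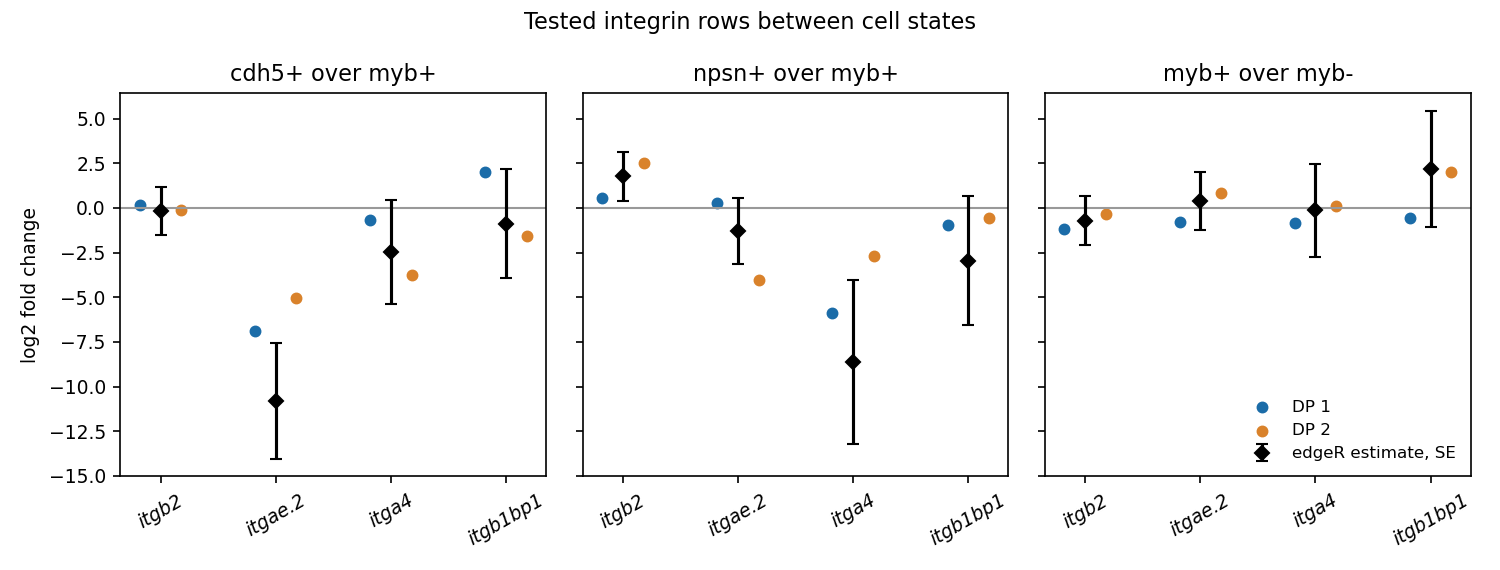
Log2 fold change of the 4 tested integrin rows in the 3 comparisons of cell states. Black diamonds are edgeR estimates with their SE, and coloured points are the log2 CPM differences within DP 1 (blue) and DP 2 (orange) computed with 0.5 added to each sum, so points and diamonds of a gene at 0 in a state are not bounds. No row was called, and itgae.2 in cdh5+ over myb+ cells lies farthest from 0 in the first panel.

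Leaving out the 4 cells with high neutrophil markers outside the npsn+ state, an alternative chosen after the data were seen, moved the itgae.2 level of myb+ cells to 91.9 CPM in DP 1 and 55.5 CPM in DP 2, and that of myb- cells in DP 2 to 16.4 CPM. The 4 cells themselves held no itga4. After this 0 of the tested integrin rows were called in any comparison.

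Within the myb+ cells, thinned to equal depth, kdrl was found in 1 of 22 cells with itgb2 and 1 of 14 cells without it in DP 1. In DP 2 it was found in 1 of 3 cells with itgb2 and 7 of 15 cells without it. spi2 was found in 16 of 22 cells with itgb2 and 8 of 14 cells without it in DP 1, and in 3 of 3 and 13 of 15 cells in DP 2. With itga4, spi2 was found in 8 of 9 DP 1 cells, against 16 of 27 cells without itga4. With itgae.2, spi2 was found in 14 of 20 DP 1 cells, against 10 of 16 cells without itgae.2, and in 5 of 7 and 11 of 11 cells in DP 2. The cell numbers of DP 2, 2 with itga4 and 16 without, allow no comparison of the same kind.

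Pairs of chains known to join in other vertebrates were then counted in the same thinned cells. For each pair the share of alpha-positive cells that also held the beta chain is set beside the share of all cells that held it. Of 14 cells with itga4, 2 also held a beta1 chain (14.3%), against 7 of all 79 cells (8.86%); both were DP 1 cells with itgb1a. Without thinning it was 7 of 25 itga4 cells (28%), against 15 of 88 cells (17.0%), of which 4 held itgb1a and 3 itgb1b. itgb7, the other beta partner of alpha4, was found in 1 thinned cell and in none with itga4. Most cells with itga4 transcripts thus had no beta1 or beta7 transcript that could be found at this depth.

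The same held for itgae.2. None of its 34 thinned cells held itgb7, and without thinning 1 of 49 did. itga5 was found in 2 thinned cells, neither with a beta1 chain, while without thinning 4 of 8 itga5 cells held one, against 15 of 88 cells. itgav was found in 1 cell of DP 2, which also held a partner chain. For itgb2, the only classical alpha partner read was itgam, which was at 0. None of the 33 matched rows was an itgal, itgax or itgad chain, so whether itgb2 had another classical partner could not be read. The alpha6 chains itga6a, itga6b and itga6l were found in 2 cells each without thinning and in 1, 2 and 1 thinned cells. These shared no thinned cell with a beta1 chain, and itga6l shared none with itgb4. Without thinning, 1 of the 2 itga6a cells held a beta1 chain.

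**Figure D4:**
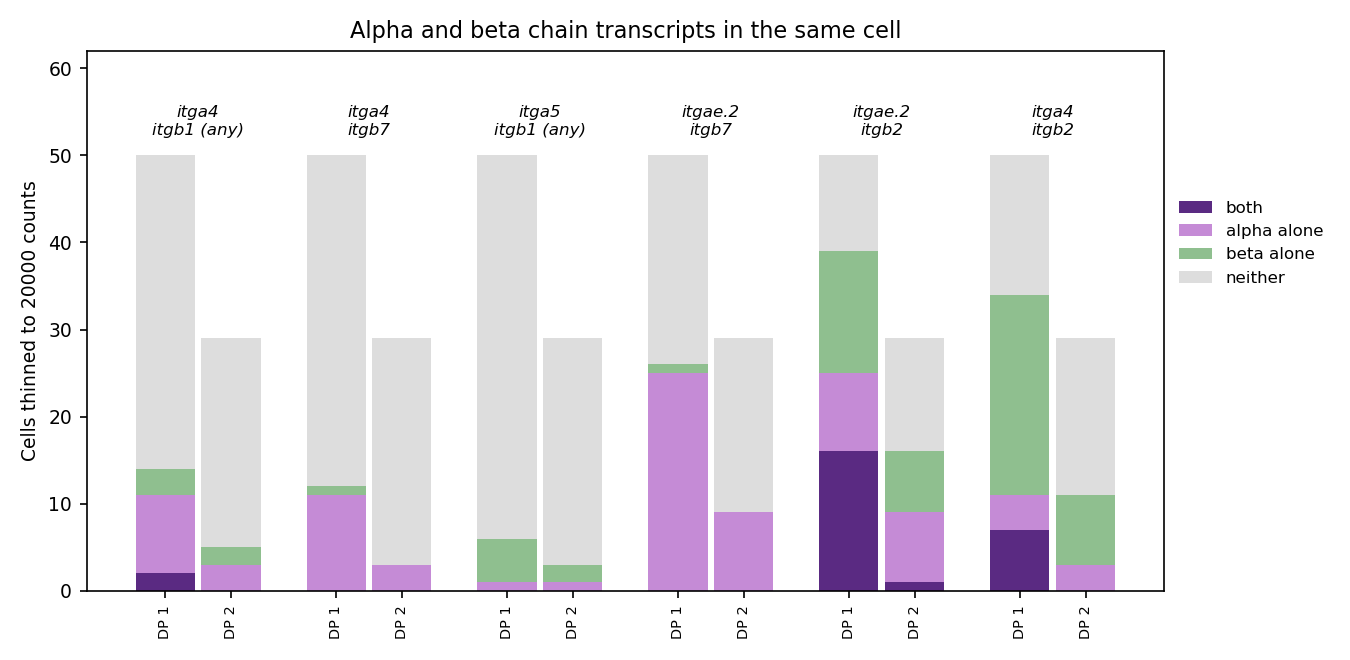
Number of cells, thinned to 20000 counts, with both chains of a pair, the alpha chain alone, the beta chain alone or neither, in DP 1 (50 cells) and DP 2 (29 cells). itgae.2 and itgb2 met in 16 DP 1 cells and 1 DP 2 cell, itga4 and itgb2 in 7 DP 1 cells, and itga4 with a beta1 chain in 2 DP 1 cells; the 2 pairs with itgb2 were added after the data were seen.

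The chains most often seen together were the most widely found ones, a count added after the data were seen. itgae.2 and itgb2 met in 17 of 34 thinned itgae.2 cells (50%), against 38 of all 79 cells with itgb2 (48.1%). In DP 1 it was 16 of 25 cells (64%, against 60% of all), and in DP 2 it was 1 of 9 cells (11.1%, against 27.6% of all). By state, the pair met in 3 of 5 npsn+ cells and 12 of 36 myb+ cells of DP 1, and in 0 of 18 myb+ cells of DP 2. itga4 and itgb2 met in 7 of 14 thinned itga4 cells (50%), all of DP 1. In these pooled counts the share of itgb2 among cells with either alpha chain was close to its share among all cells.

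itgae.2 and itga4, both alpha chains, met in 9 thinned cells, which were 26.5% of the itgae.2 cells and 64.3% of the 14 itga4 cells, against 43.0% of all cells with itgae.2. Of these, 6 were DP 1 cells (of 11 with itga4, or 54.5%, against 50% of all DP 1 cells with itgae.2). The other 3 were DP 2 cells (of 3 with itga4, against 31.0% of all DP 2 cells with itgae.2). This pair was also added after the data were seen. Without thinning, 21 of 25 itga4 cells held itgae.2 (84%), against 49 of 88 cells (55.7%). Thinned to 50000 counts it was 71.4%, against 60.3% of all cells, and with 2 or more counts asked of each gene it was 2 of 6 cells (33.3%), against 27.8%. Cells of every state enter this count. At equal depth itgae.2 was found in 0 of 7 cdh5+ cells and itga4 in 1 of 7, against 27 and 11 of 54 myb+ cells. Among thinned myb+ cells of DP 1, 6 of 9 itga4 cells held itgae.2, against 20 of all 36. In DP 2 it was 2 of 2 itga4 cells, against 7 of all 18. The part of the states in the pooled count was not tested.

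Genes that act with integrins inside the cell were then read from the same fits. Of 50 adaptor and activator genes, 48 were in the table and 21 were tested, and 0 were called in any of the 3 comparisons by edgeR. Their median log2 fold change was -0.88 in cdh5+ over myb+ cells, 0.02 in npsn+ over myb+ and 0.64 in myb+ over myb- cells, beside -0.38, -0.69 and 0.40 over all genes tested. Genes could enter through the states where they are high, so these medians describe the 21 genes and not the list. With genes at 0 in 1 state set to their bound and parvaa, at 0 in npsn+, myb+ and myb- cells, left out of the comparisons between these, the adaptor medians were -0.88, 0.16 and 0.90. The list includes itgb1bp1. In cdh5+ cells the 3 with the smallest p were parvaa, skap2 and fermt3a. parvaa, which encodes an alpha-parvin that links integrins to actin, had 27.3 CPM in the DP 1 sum and 25.1 CPM in the DP 2 sum of cdh5+ cells, against 0 and 0 CPM in myb+ cells (edgeR, adjusted p = 0.787). skap2, an adaptor of blood cell adhesion signalling, had 0 and 0 CPM in cdh5+ cells, against 15.5 and 19.0 CPM in myb+ cells, and fermt3a, a kindlin of blood cells that activates integrins, had 1.52 and 0 CPM, against 46.0 and 4.06 CPM (both edgeR adjusted p = 1).

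In npsn+ cells the 3 with the smallest p all had higher sums than in myb+ cells in both libraries. parvg, the parvin of blood cells, had 258 and 607 CPM in npsn+ cells, against 84.6 and 61.9 CPM in myb+ cells (log2 fold change 2.65 ± 0.99, edgeR adjusted p = 0.323). DESeq2 called it, at 2.89 with an adjusted p of 0.0261. tln1, which encodes the integrin activator talin, had 383 and 457 CPM, against 152 and 126 CPM (1.68 ± 0.83, adjusted p = 0.793 by edgeR). fermt3a had 252 and 104 CPM, against 46.0 and 4.06 CPM (3.46 ± 1.74, edgeR adjusted p = 0.793). The related gene fermt3b did not share this rise, with 155 and 6.52 CPM, against 143 and 36.1 CPM (-0.51 ± 1.63). The DP 2 values of npsn+ cells rest mainly on 1 cell, which gave 94.4% of the counts of that sum. In myb+ over myb- cells the 3 were capn2b, a calpain protease gene with 37.1 and 23.0 CPM in myb+ cells, against 0 and 0 CPM in myb- cells, rap1aa, a small GTPase gene of integrin activation with 77.9 and 21.7 CPM, against 4.04 and 2.33 CPM, and tns1b, a tensin gene with 4.33 and 24.8 CPM, against 0 and 4.67 CPM, each with an edgeR adjusted p of 1. The sums behind these values differ in depth, with 6690171 and 2214661 counts in myb+ cells, against 494745 and 428295 in myb- cells.

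Of 55 ligand genes, 47 were in the table and 12 were tested, and again 0 were called by edgeR. Their median log2 fold change was 3.2 in cdh5+ over myb+ cells, -3.82 in npsn+ over myb+ and 1.81 in myb+ over myb- cells, beside the medians of all genes given above. They describe the 12 genes that entered, which could do so through the state where they are high, and not the 47. With genes at 0 in 1 state set to their bound, the ligand medians of the npsn+ and myb comparisons were -2.16 and 1.06. postnb, which encodes the matrix protein periostin, had 395 CPM in cdh5+ cells of DP 1 and 116 CPM in those of DP 2, against 7.47 and 14.0 CPM in myb+ cells (4.80 ± 1.84, edgeR adjusted p = 0.787); DESeq2 called it, at 5.16 with an adjusted p of 0.0415. postnb is also one of 9 mesenchyme markers, which summed to 395 and 166 CPM in cdh5+ cells (1 and 3 with a count), against 13.6 and 23.5 CPM in myb+ cells. In cdh5+ cells postnb was itself the whole of the DP 1 sum, the other 8 markers being at 0 there, and 116 of the 166 CPM in DP 2. Per cdh5+ cell, the DP 1 values, all postnb, lay between 0 and 821 CPM with a median of 62.2 CPM. The postnb level of DP 1 was thus very uneven between few cells. In DP 2 the mesenchyme markers of a cdh5+ cell summed to between 33.0 and 729 CPM, with a median of 298 CPM. col4a2, a basement membrane collagen gene, had 54.6 and 163 CPM, against 0.149 and 16.3 CPM (edgeR adjusted p = 1). thbs1b, a thrombospondin gene, had 240 and 0 CPM in cdh5+ cells, against 0.747 and 0.903 CPM in myb+ cells (edgeR adjusted p = 1), so its difference rested on DP 1.

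In npsn+ cells jam2a, which encodes a junctional adhesion molecule, had 5.76 and 0 CPM, against 79.2 and 117 CPM in myb+ cells (-4.15 ± 1.58, edgeR adjusted p = 0.350), and DESeq2 called it, at -4.04 with an adjusted p of 0.0243. jam3b, of the same family, had 0 and 0 CPM in npsn+ cells, against 28.7 and 7.68 CPM in myb+ cells, and col1a1b, a collagen I gene, had 0 and 0 CPM, against 7.03 and 20.3 CPM (edgeR adjusted p of 0.793 and 0.800). The npsn+ sum of DP 2 held only 153267 counts. With 3 counts as the limit, its 0 set no bound for jam3b and almost none for col1a1b. In myb+ over myb- cells the 3 ligand genes with the smallest p were tgfbi, a matrix protein gene with 4.04 and 23.0 CPM in myb+ cells, against 0 and 0 CPM in myb- cells, thbs1b, with 0.747 and 0.903 CPM, against 36.4 and 2.33 CPM, and postnb, with 7.47 and 14.0 CPM, against 0 and 4.67 CPM, each with an edgeR adjusted p of 1.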

How the data were processed

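The authors' deposited values are whole-number counts of each gene in each cell, and the deposited cell table gives the sort of each library. The build GRCz11 and the tools HISAT2 2.1.0 and Trimmomatic 0.36 appear in the submitters' processing notes, which do not tie them to an assay; how counts were made, with what use of strand and whether molecules were collapsed, is not given in the sources used here. The libraries DP 1 and DP 2 hold 9232289 and 3114643 counts in kept cells. Of 93 cells in the table, 5 with under 500 genes were removed. No doublet caller was run, and 0 cells met both the cdh5+ and npsn+ limits.

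Raw counts were summed per state and library (8 sums) and tested with edgeR 4.0.16 in R 4.3.3 (TMM, filterByExpr, two-sided, 3 residual degrees of freedom); genes with an adjusted p under 0.05 were called. Each SE was taken from the fold change and the F statistic (log2 change over root F), not from a fitted coefficient. Nothing says that the libraries came from separate embryos, so p-values measure only the spread between these sums. cdh5, npsn and myb were not tested. Alternatives used DESeq2 1.42.0 and limma 3.58.1. The test was checked on simulated data.

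The members, lists and limits were chosen with earlier results of these data known. Chains found in 5 or more cells were described, other rows were accounted for by name and count, and of the adaptor and ligand lists the called genes or else the 3 with the smallest p were named. Symbols were as deposited; 10 of the 33 rows matched an Ensembl identifier and 30 a RefSeq gene. Sequences and coordinates are not given. The libraries are the replicates, paired across states because each state was summed within each library.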

Additional observations from a re-analysis of the deposited data

How the results depend on the processing

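Counts of called integrin rows stayed at 0 except in cdh5+ over myb+ cells with DESeq2 and with npsn at 50 CPM, where 1 row (itgae.2) was called. The cause was not tested for any change below. The count over all genes in that comparison was 27 with DESeq2, 7 with no filter on low counts, 0 with any count of the state genes, 41 with npsn at 50 CPM, 3 with cdh5 and myb at 200 CPM, 4 in thinned cells, 1 without the deepest cell of each sum and 0 with the mean CPM per cell (limma). In npsn+ over myb+ cells, in the same order, it was 158, 39, 0, 37, 3, 46, 13 and 21, and in myb+ over myb- cells it was 6 with DESeq2 size factors, 30 with npsn at 50 CPM, 1 in thinned cells and 3 without the 4 cells of high neutrophil markers. DESeq2 called 1 ligand gene in the first comparison, and 1 adaptor and 1 ligand gene in the second. Without the replicate block, 11, 74 and 0 genes were called over all genes in the 3 comparisons, and no call of an integrin row changed. At 200 CPM the cdh5+ state held 1 cell of each library. With any count of the state genes, cdh5+ held 1 cell of DP 1 and 2 of DP 2, and npsn+ held 42 and 18.

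Signs turned only for uncalled log2 differences. For itgb1bp1 in cdh5+ over myb+ cells they were 1.41 without the block, 0.0625 without the deepest cells, 0.15 with mean CPM and between -1.59 and 2.0 within 1 library. For itgb2 there they were 0.13 with DESeq2, 0.12 with size factors, 0.0496 thinned, 0.20 without the deepest cells, 0.35 with mean CPM and between -0.13 and 0.19 within 1 library. In npsn+ over myb+ cells itgb2 was at -0.21 with any count of the state genes, and itgae.2 between -4.01 and 0.29 within 1 library. In myb+ over myb- cells itgb1bp1 was at -1.03 at 200 CPM and between -0.55 and 2.02 within 1 library, itgb2 at 2.67 with any count of the state genes, and itgae.2 at -0.14 without the block and between -0.81 and 0.85 within 1 library. itga4 there was at 1.09 with npsn at 50 CPM, 0.81 at 200 CPM, 0.52 with mean CPM and between -0.83 and 0.0813 within 1 library.

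The share of DP 1 cells with itgae.2 was 67.9% without thinning. By mean CPM per cell, itgae.2 in DP 1 was 113 CPM and itga4 in DP 2 was 8.35 CPM. With 2 or more counts asked of a chain, 0% of itga4 cells held a beta1 chain and 31.8% of itgae.2 cells held itgb2. Size factors moved the median of all genes to -0.05, -0.59 and 0.22 in the 3 comparisons. Depth limits each statement on a gene or chain that was not found. A 0 sets no bound where the level beside it lies under 3 counts of that sum.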
